A study of Mus musculus with 12 samples.

Results

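The glutathione genes described here are the 9 members Gclc, Gclm, Gss, Gsr, Gpx1, Gpx4, Chac2, Ggct and Oplah, which were chosen by their known role in making, recycling, using or breaking down glutathione. They are 9 of 36047 genes with a listed transcript, and all 9 were among the 14670 genes abundant enough to be tested. The choice was made with earlier results of these data known, so shares of members set beside all genes below are a description.

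Glutathione is a tripeptide of glutamate, cysteine and glycine. Glutamate-cysteine ligase, with a catalytic subunit encoded by Gclc and a modifier subunit encoded by Gclm, joins glutamate to cysteine, and glutathione synthetase (Gss) then adds glycine. Glutathione peroxidases spend glutathione to reduce peroxides, glutathione reductase (Gsr) restores the oxidized form with NADPH, and the liver is the main organ that makes glutathione and exports it to blood and bile. Cysteine reaches the liver with food or is made there from methionine.

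Liver RNA was sequenced from 12 adult male C57Bl/6J mice after 7 days on their diets, with 3 mice in each of 4 groups. RF.Ctrl mice ate a regular-fat control diet and RF.SAAR mice a regular-fat diet with sulfur amino acid restriction. HF.Ctrl mice ate a high-fat control diet and HF.SAAR mice a high-fat restricted diet. The regular-fat and high-fat diets came from different suppliers, so fat level and supplier cannot be told apart. No diet contained cysteine, so the Ctrl and SAAR diets differed in methionine, with glutamic acid, itself a building block of glutathione, added to the restricted diets in its place. All mice were singly housed, drank deuterated water for a label used in other measurements, and were without food for several hours before the liver was taken. The estimated counts per mouse summed to between 16203094 and 21230092.

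On the deposited transcripts per 1000000 (TPM), a level that takes transcript length into account and can therefore be compared between genes, the 9 members spanned more than 2 orders of magnitude. Gpx1, which encodes the abundant cytosolic glutathione peroxidase, had the highest mean level at 1578 ± 152 TPM (SD, n = 12 mice). Gpx4, the peroxidase that reduces lipid hydroperoxides in membranes, came next at 246 ± 57.0 TPM, and its range did not overlap with that of Gpx1. Mean TPM levels of both ligase subunits were 110, with an SD of 42.9 for Gclc and 29.9 for Gclm, and their order could not be told apart, since it turned around on counts per kilobase of effective length scaled as in the tests.

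Mean TPM was 43.4 ± 11.1 for Gss, 31.5 ± 4.60 for Oplah, 31.4 ± 6.00 for Chac2, 19.8 ± 4.48 for Gsr and 10.8 ± 3.23 for Ggct. Except for Gpx4 and Gss, each member's TPM range overlapped with that of the member above it in this order. In the plot of TPM by mouse, this order ran from Gpx1 at the top to Ggct, for which 123 to 266 estimated counts per mouse were available. For each pair of subunit transcripts in the same mouse, the ratio of Gclc TPM to Gclm TPM lay between 0.67 in HF.Ctrl replicate 2 and 1.26 in RF.SAAR replicate 1.

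**Figure D1:**
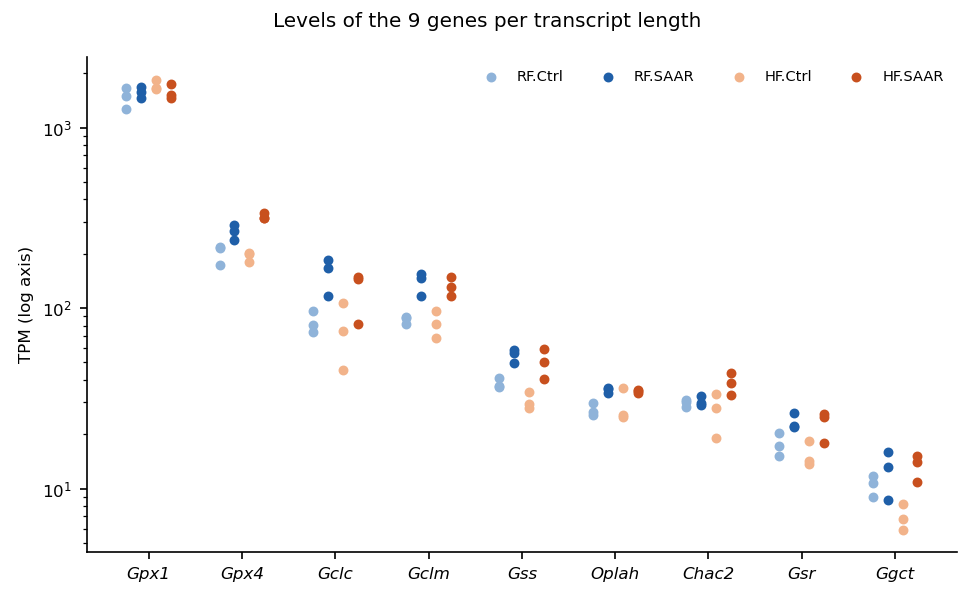
Deposited TPM of each of the 9 genes (log axis) in each of the 12 mice, 1 point per mouse, colored by diet group and ordered by mean TPM over all mice. Gpx1 lies between 1270 and 1845 TPM in every mouse, above all other members, and Ggct between 5.90 and 15.9 TPM.

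TPM was not used to compare diets. The deposited effective lengths, by which TPM divides each count, fell short of the transcript length by a mean of 90.9 to 219 bases in Ctrl mice and 209 to 253 bases in SAAR mice over the 38711 transcripts longer than 2000 bases. Differences between diets are given below in normalized counts per 1000000 (CPM), that is, gene counts divided by a library size corrected with TMM factors, and in log2 fold changes from edgeR's quasi-likelihood test fitted on all 12 mice. A gene is called where its p, adjusted over all tested genes, is under 0.05.

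In RF.SAAR vs. RF.Ctrl, which asks what restriction does on regular fat, edgeR called 0 of 9 members, against 218 of 14670 genes or 1.49% of all tested (88 higher and 130 lower). The 4 members Gclc, Gclm, Gss and Gsr, all higher with restriction, had an unadjusted p under 0.05, against 13.6% of all genes. DESeq2 called 1 member, Gss, against 5.25% of the genes left by its own filter. The CPM of the restricted mice did not overlap with that of their controls for 4 members, with Gclc, Gclm and Gss higher and Chac2 lower, against 18.2% of all genes.

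On high fat, in HF.SAAR vs. HF.Ctrl and with other mice, edgeR again called 0 of 9 members, against 289 genes or 1.97% (148 higher and 141 lower). The 4 members Gss, Ggct and Gpx4, which were higher, and Gpx1, which was lower, had an unadjusted p under 0.05, against 12.4% of all genes. DESeq2 called 2, Gss higher and Gpx1 lower, against 5.12%. Groups did not overlap in CPM for 5 members, Gss, Gsr, Gpx4 and Ggct higher and Gpx1 lower, against 17.9%.

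In SAAR vs. Ctrl averaged over fat, the mean of these 2 comparisons from the same fit and the same mice, edgeR called 1 of 9 members, Gss, which rose, against 1015 genes or 6.92% of all tested (472 higher and 543 lower). An unadjusted p under 0.05 was reached by 7 members, against 20.3%, and DESeq2 called 5, with Gss, Gclc, Gclm and Ggct higher and Gpx1 lower, against 9.45%. For 1 member, Gss, all 6 restricted mice lay above all 6 controls, against 4.30% of genes with such a separation in either direction.

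The median log2 fold change of the 9 members was 0.26 on regular fat, 0.19 on high fat and 0.22 in the average, where the median of all tested genes lay within 0.01 of 0. In each of these comparisons 7 of 9 members were positive, beside 49.8, 49.8 and 49.3% of all genes. These values depend on the scaling: without TMM factors, on library size alone, the median of all genes moved up by 0.166 on regular fat, 0.167 on high fat and 0.166 in the average, and in the average Gclm and Gsr were at 0.38, Gss at 0.50, Gpx4 at 0.43 and Oplah at 0.25. All changes below are relative to the TMM scale. In a liver sample, fewer cells of a type and less RNA per cell cannot be told apart.

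**Figure D2:**
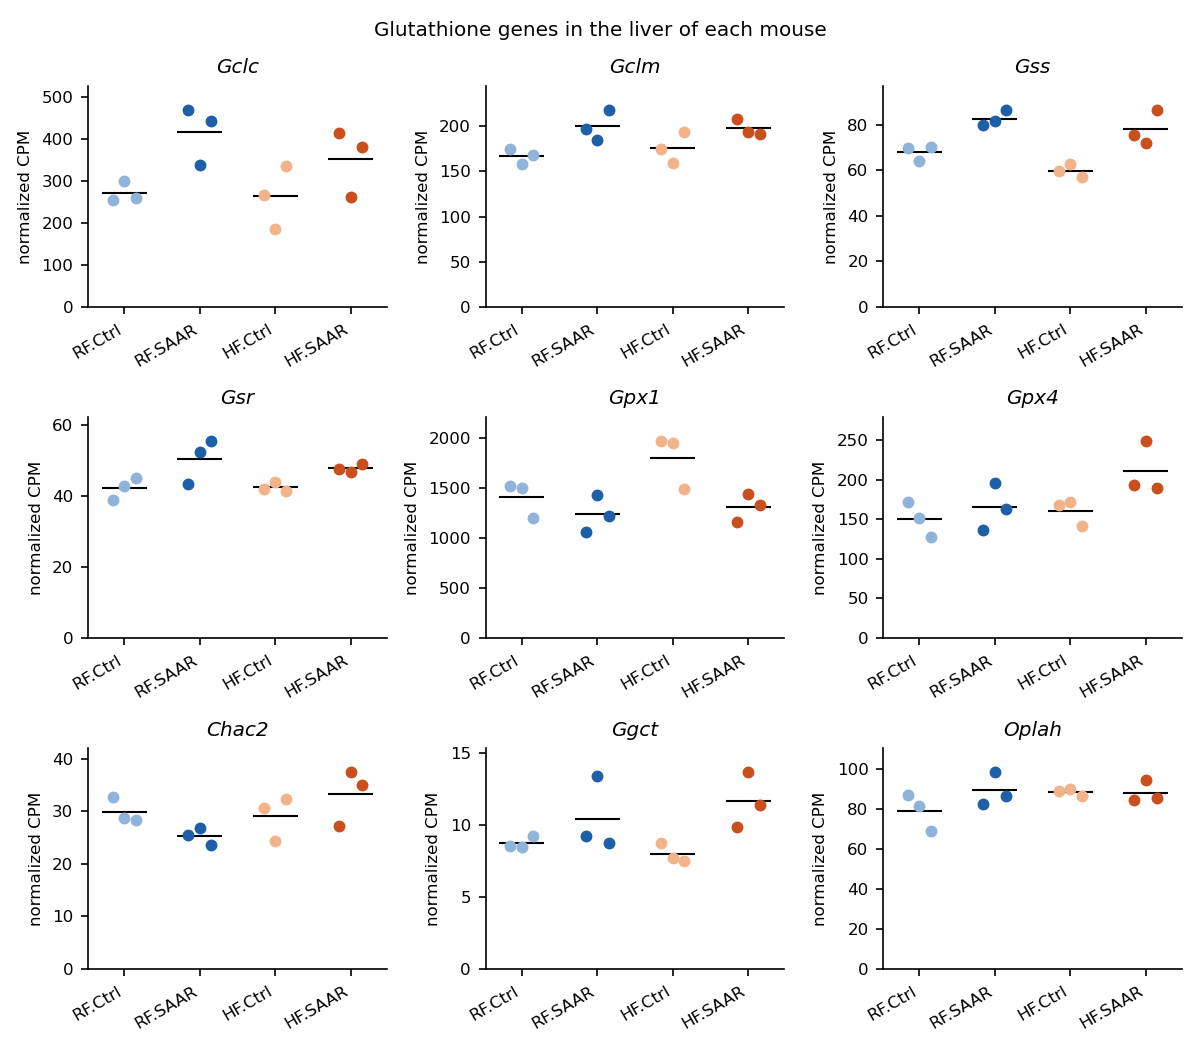
Normalized CPM of each of the 9 genes in each mouse (points) by diet group, with the group mean of 3 mice as a line; each axis starts at 0. Gss is the gene for which the 6 restricted mice, from 72.2 to 86.6 CPM, all lie above the 6 controls, from 57.2 to 70.2 CPM.

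Gss (ENSMUSG00000027610, GRCm38 chromosome 2, 155563181 to 155592810, minus strand) encodes the enzyme of the final step of synthesis. Its CPM was 69.6, 64.3 and 70.2 in RF.Ctrl replicates 1 to 3 and 80.1, 81.5 and 86.4 in RF.SAAR. On high fat it was 59.5, 62.6 and 57.2 in HF.Ctrl and 75.5, 72.2 and 86.6 in HF.SAAR. The highest control was RF.Ctrl replicate 3 and the lowest restricted mouse HF.SAAR replicate 2, so that the diets did not overlap on either fat level. Averaged over fat, Gss rose by 0.33 on the log2 scale (SE 0.07, 95% interval 0.19 to 0.48, adjusted p = 0.00974 in edgeR, n = 6 mice per diet). The increase was 0.28 on regular fat (SE 0.10, edgeR adjusted p = 0.185) and 0.39 on high fat (SE 0.10, edgeR adjusted p = 0.0595), and neither passed the threshold on its own. On the other strand Gss overlaps Acss2, an acetyl-CoA synthetase gene with a mean of 106 CPM beside 72.1 CPM for Gss, and Gssos1 and Gssos2, which also lie over the promoter stretch printed below. These are overlaps of whole gene spans, and whether the transcripts share sequence there was not looked at. Since the strand setting of the counting was not given in the sources used here, any shared reads cannot be told apart.

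Promoter sequence is shown for Gss, as the member that passed the test, and for the 2 members whose upstream window held the core letters of the antioxidant response element, TGACNNNGC or GCNNNGTCA on the other strand, which NRF2 is known to bind. Sequences are from RefSeq, GRCm38.p6, 5′ to 3′ on the strand of the gene, with the element's letters in capitals and nothing in capitals where they were absent. The stretches are chr2:155592811-155593060 on the minus strand for Gss, chr3:122245307-122245486 on the plus strand for Gclm and chr6:54992961-54993117 on the minus strand for Ggct.
Gss: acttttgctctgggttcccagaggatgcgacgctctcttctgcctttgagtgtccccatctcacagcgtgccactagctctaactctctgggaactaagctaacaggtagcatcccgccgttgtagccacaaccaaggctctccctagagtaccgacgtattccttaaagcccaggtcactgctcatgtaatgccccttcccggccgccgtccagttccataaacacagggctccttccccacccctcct
Gclm: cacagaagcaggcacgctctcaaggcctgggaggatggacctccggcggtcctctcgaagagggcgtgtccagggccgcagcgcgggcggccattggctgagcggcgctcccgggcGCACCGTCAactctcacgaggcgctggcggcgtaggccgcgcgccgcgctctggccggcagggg
Ggct: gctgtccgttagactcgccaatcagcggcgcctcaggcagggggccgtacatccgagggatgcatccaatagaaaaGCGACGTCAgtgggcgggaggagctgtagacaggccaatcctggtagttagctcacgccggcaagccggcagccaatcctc

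RefSeq promoter entries were matched for 6 of 9 members (not Gclc, Gsr and Oplah), with 9 entries in all since Gpx4 has several. The element's core began 134 bases before the RefSeq start of Gclm and 174 bases before that of Ggct, both times as GCNNNGTCA, and was thus in 2 of these 9 promoters and in 3338 of 32851 promoters of all genes, or 10.2%, over windows of 250 bases. The letters TGATGNAA, or TTNCATCA on the other strand, of the composite element that ATF4 is known to bind with C/EBP factors, were in 0 of the 9 promoters and in 3.5% of all promoters. The GC box GGGCGG, or CCGCCC on the other strand, was in 5 of the 9 and in 32.7% of all promoters; 3 of the 5 are entries of Gpx4, of which 2 overlap and share the same matches. It overlapped with neither of the 2 capitalized matches. These are letters in a window and were not tested as binding sites.

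Gclc (ENSMUSG00000032350, chromosome 9, 77754535 to 77794485) encodes the catalytic subunit of the rate-limiting ligase. Its CPM was 255, 301 and 260 in RF.Ctrl and 470, 339 and 444 in RF.SAAR, and 268, 187 and 336 in HF.Ctrl and 414, 262 and 381 in HF.SAAR. All 3 restricted mice were above their controls on regular fat, whereas HF.SAAR replicate 2 lay below HF.Ctrl replicates 1 and 3, so that the diets overlapped on high fat. Gclc had the largest estimate of the 9 members on regular fat and in the average and also a wide error, and on the log2 scale it was 0.62 on regular fat (SE 0.21, 95% interval 0.15 to 1.09, edgeR adjusted p = 0.206), 0.42 on high fat (SE 0.21, adjusted p = 0.467) and 0.52 in the average (SE 0.15, adjusted p = 0.0632). In the average it passed the threshold with DESeq2 (adjusted p = 0.00839), with the acinar marker covariate described below (adjusted p = 0.0331) and with library size alone (adjusted p = 0.033), where the alternatives other than leaving out single mice gave adjusted p from 0.00839 to 0.202. With single mice left out, edgeR passed it in the average without RF.SAAR replicate 2, HF.Ctrl replicate 3 or HF.SAAR replicate 2, while its value over the 12 mice left out was 0.42 to 0.63 and its adjusted p 0.0273 to 0.147. The high-fat value was 0.22 without HF.Ctrl replicate 2 and 0.63 without HF.Ctrl replicate 3, and the regular-fat value lay between 0.53 and 0.75.

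Gclm (ENSMUSG00000028124, chromosome 3, 122245557 to 122270732) encodes the modifier subunit, which raises the ligase's affinity for glutamate. Its CPM was 175, 158 and 168 in RF.Ctrl and 197, 185 and 218 in RF.SAAR, with no overlap, and 175, 159 and 193 in HF.Ctrl and 208, 193 and 191 in HF.SAAR, where HF.Ctrl replicate 3 reached the restricted mice. The log2 fold change was 0.26 on regular fat (SE 0.10, edgeR adjusted p = 0.259), 0.17 on high fat (SE 0.10, adjusted p = 0.556) and 0.21 in the average (SE 0.07, adjusted p = 0.0956). On high fat it was 0.10 without HF.Ctrl replicate 2, 0.24 without HF.Ctrl replicate 3 and 0.09 without the 5 mice rich in acinar markers described below. Over single mice left out it was 0.20 to 0.31 on regular fat and 0.18 to 0.25 in the average, where edgeR's adjusted p was 0.0602 to 0.218. Where the deposited effective lengths entered the fit as offsets, the averaged value was 0.39 and passed the threshold (adjusted p = 0.00957), with 0.41 on regular fat and 0.36 on high fat, which did not pass it. Other values moved down or up with these offsets: Gss in the average was at 0.31 (adjusted p = 0.0264), Gsr on regular fat at 0.17 in place of 0.26, Ggct on regular fat at 0.02 in place of 0.26 and in the average at 0.32 (adjusted p = 0.36), Oplah on regular fat at 0.10 in place of 0.17 and in the average at 0.02 in place of 0.08, and Gsr and Ggct on high fat at 0.23 and 0.62 in place of 0.17 and 0.55. The mean effective length of Gclm, weighted over its transcripts, lay between 1801 and 2033 bases in Ctrl mice and between 1590 and 1725 in SAAR mice.

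Gclm counts were split by the deposited estimates over 3 main transcripts. Gclm-201, which has 7 exons and 5589 bases, held 66.2% of them, Gclm-206 19.9% and Gclm-203 13.4%, the latter 2 with lengths of 1002 and 1088 bases. The share of Gclm-201 was 68.0, 68.6 and 72.7% in RF.Ctrl and 64.1, 64.4 and 63.6% in RF.SAAR, and 69.0, 66.7 and 73.4% in HF.Ctrl and 62.1, 61.4 and 65.6% in HF.SAAR. It was lower in all 6 restricted mice than in all 6 controls, as the plot of transcript shares shows. How often transcript shares of other genes separate the diets in this way was not computed, so this separation has no background here. In the fit on single transcripts, the averaged log2 fold change was 0.51 for Gclm-206 (SE 0.08, edgeR adjusted p = 0.0162) and 0.48 for Gclm-203 (adjusted p = 0.0584), beside 0.08 for Gclm-201 (adjusted p = 0.830). These averaged transcript values were looked at after the gene values were seen, and a share of estimated counts rests on how reads common to several transcripts were divided.

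**Figure D3:**
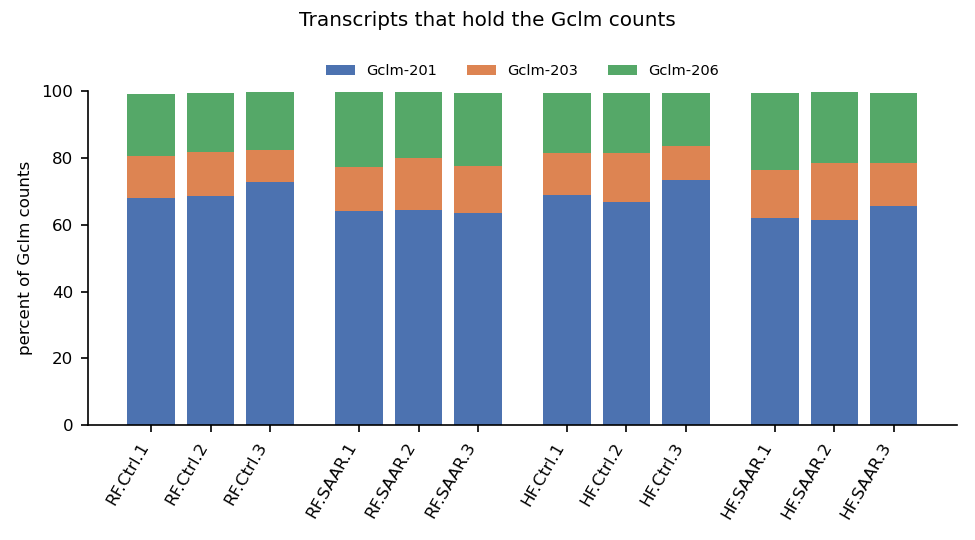
Percent of the estimated counts of Gclm in each mouse that were assigned to its 3 main transcripts (stacked bars from 0). The Gclm-201 share lies between 66.7 and 73.4% in the Ctrl mice and between 61.4 and 65.6% in the SAAR mice.

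Gsr (ENSMUSG00000031584, chromosome 8, 33652523 to 33698163), glutathione reductase, is the member that recycles oxidized glutathione. Its CPM was 39.0, 42.8 and 45.3 in RF.Ctrl and 43.5, 52.6 and 55.7 in RF.SAAR, where RF.SAAR replicate 1 lay among the controls. On high fat it was 42.0, 44.0 and 41.5 in HF.Ctrl and 47.7, 46.9 and 49.2 in HF.SAAR, with all restricted mice higher. The log2 fold change was 0.26 on regular fat (SE 0.10, edgeR adjusted p = 0.272), 0.17 on high fat (SE 0.10, adjusted p = 0.548) and 0.22 in the average (SE 0.07, adjusted p = 0.0997). Without RF.SAAR replicate 1 the averaged value was 0.26 and passed the threshold with an edgeR adjusted p of 0.037, at the end of a range over single mice left out of 0.18 to 0.26 and adjusted p up to 0.213.

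The 2 peroxidases, both selenoproteins, stood on opposite sides of 0. Gpx1 (ENSMUSG00000063856, chromosome 9, 108338903 to 108340343) had a CPM of 1521, 1499 and 1200 in RF.Ctrl and 1062, 1430 and 1215 in RF.SAAR, which overlapped. Its CPM was 1969, 1943 and 1488 in HF.Ctrl and 1157, 1437 and 1326 in HF.SAAR, with all restricted mice lower. HF.Ctrl replicates 1 and 2 were the highest of all 12 mice. The log2 fold change of Gpx1 was -0.19 on regular fat (SE 0.14, edgeR adjusted p = 0.649), -0.46 on high fat (SE 0.14, adjusted p = 0.139) and -0.32 in the average (SE 0.10, adjusted p = 0.0734). DESeq2 gave an adjusted p of 0.0496 on high fat and 0.0355 in the average. In the average, edgeR also passed it without RF.SAAR replicate 2 or without HF.Ctrl replicate 3, while its value over the 12 mice left out was -0.38 to -0.28 and its adjusted p 0.034 to 0.176. The regular-fat value was -0.09 without RF.SAAR replicate 1 and -0.31 without RF.SAAR replicate 2, and the high-fat value lay between -0.58 and -0.38. With library size alone Gpx1 was at -0.03 on regular fat, -0.29 on high fat and -0.16 in the average. With the acinar marker covariate described below it was at -0.11, -0.50 and -0.30.

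Gpx4 (ENSMUSG00000075706, chromosome 10, 80047166 to 80056439) had a CPM of 172, 151 and 128 in RF.Ctrl and 136, 196 and 163 in RF.SAAR, which overlapped. It was 168, 172 and 141 in HF.Ctrl and 193, 249 and 189 in HF.SAAR, where all restricted mice were higher and replicate 2 the highest. Restriction gave a log2 fold change of 0.14 on regular fat (SE 0.16, edgeR adjusted p = 0.811), 0.39 on high fat (SE 0.16, adjusted p = 0.303) and 0.26 in the average (SE 0.11, adjusted p = 0.197). Without single mice the regular-fat value ranged from -0.01 (without RF.SAAR replicate 2) to 0.26, the high-fat value from 0.24 (without HF.SAAR replicate 2) to 0.46 and the averaged value from 0.19 to 0.33. The pseudogene Gpx4-ps2 had a mean of 0.0174 CPM.

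Chac2, Ggct and Oplah belong to the breakdown of glutathione, in which Chac2 cleaves it to 5-oxoproline and cysteinylglycine, Ggct forms 5-oxoproline from gamma-glutamyl amino acids, and Oplah, 5-oxoprolinase, returns 5-oxoproline to glutamate. Chac2 (ENSMUSG00000020309, chromosome 11, 30976707 to 30986350) had a CPM of 32.7, 28.7 and 28.4 in RF.Ctrl and 25.4, 26.8 and 23.5 in RF.SAAR, all lower. On high fat its CPM was 30.6, 24.4 and 32.4 in HF.Ctrl and 27.2, 37.5 and 35.0 in HF.SAAR, which overlapped. The log2 fold change was -0.25 on regular fat (SE 0.14, edgeR adjusted p = 0.490), 0.19 on high fat (SE 0.14, adjusted p = 0.645) and -0.03 in the average (SE 0.10, adjusted p = 0.925). The averaged value changed sign with library size alone, to 0.13, and the high-fat value did so without the 5 mice rich in acinar markers described below, to -0.27. The averaged value without these 5 mice was -0.23. Without single mice the high-fat value ranged from 0.08 (without HF.Ctrl replicate 2) to 0.32 and the averaged value from -0.08 to 0.04.

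Ggct (ENSMUSG00000002797, chromosome 6, 54982580 to 54992950) had a CPM of 8.53, 8.49 and 9.24 in RF.Ctrl and 9.22, 13.4 and 8.73 in RF.SAAR, where replicate 2 stood apart from the rest. Its CPM was 8.74, 7.73 and 7.50 in HF.Ctrl and 9.87, 13.7 and 11.4 in HF.SAAR, all higher with restriction. Its estimate on the log2 scale was 0.26 on regular fat (SE 0.18, edgeR adjusted p = 0.603), 0.55 on high fat (SE 0.18, 95% interval 0.17 to 0.93, adjusted p = 0.163) and 0.40 in the average (SE 0.12, adjusted p = 0.0733). Without RF.SAAR replicate 2 the regular-fat value was 0.04 and the averaged value 0.29, and without HF.SAAR replicate 2 the high-fat value was 0.41. Oplah (ENSMUSG00000022562, chromosome 15, 76296601 to 76328015) lay between 69.2 and 98.8 CPM over the 12 mice, with overlapping diets on both fat levels. Its log2 fold change was 0.17 on regular fat (SE 0.11), -0.01 on high fat (SE 0.11) and 0.08 in the average (SE 0.08, edgeR adjusted p = 0.609), and the high-fat value turned to 0.16 with library size alone. Without RF.Ctrl replicate 3 the value of Oplah was 0.09 on regular fat and 0.04 in the average, with ranges over single mice left out of 0.09 to 0.25 and 0.04 to 0.12. On the other strand, Chac2 overlaps Asb3 with a mean of 9.34 CPM, and Oplah overlaps Exosc4 with 17.9 CPM and Smpd5 with 0.139 CPM. Gclm overlaps Gm17494 on the other strand, for which no level is given here. As for Gss, these are overlaps of whole gene spans, and any shared reads cannot be told apart.

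**Figure D4:**
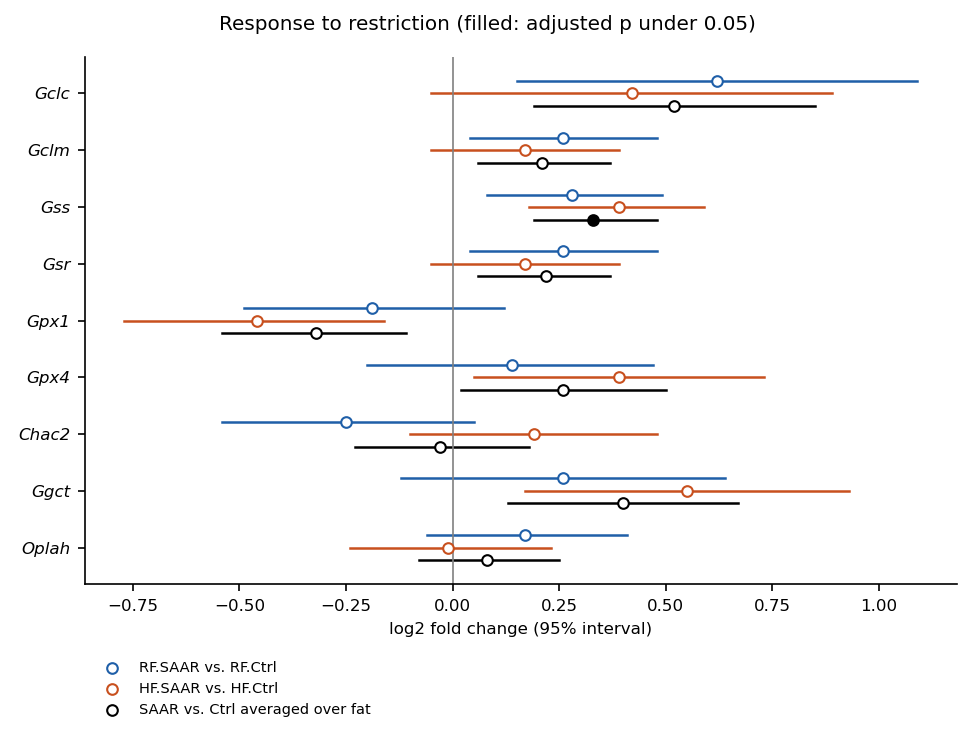
Log2 fold change of each of the 9 genes with restriction on regular fat, on high fat and averaged over fat (points), with 95% intervals of the edgeR fit on 12 mice (lines). The filled point, Gss in the average at 0.33, marks the value with an adjusted p under 0.05, and Gpx1 is the gene with all 3 points below -0.15.

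Whether the response to restriction differed between the fat levels was tested by an interaction term for diet and fat. edgeR called 0 of 9 members, against 1 gene or 0.00682% of all tested, and DESeq2 called 0, against 0.114%. At an unadjusted p under 0.05 there was 1 member, Chac2, against 3.15% of all genes, with a log2 difference of 0.44 (SE 0.19, 95% interval 0.02 to 0.85, edgeR adjusted p = 0.999). Without the 5 mice rich in acinar markers it was -0.09; of the HF.SAAR mice, the 2 left out in that fit had a Chac2 CPM of 37.5 and 35.0 and the other 27.2. For Gss the difference was 0.10 (95% interval -0.19 to 0.39), and for Gpx1 it was -0.27 (95% interval -0.71 to 0.16). Without HF.SAAR replicate 3 the former was 0.02, and the latter was -0.16 without RF.SAAR replicate 2 and -0.17 without RF.Ctrl replicate 3.

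The fat level, which goes with the supplier of the diet, was compared among control and among restricted mice, with mice that also enter the comparisons above. In HF.Ctrl vs. RF.Ctrl edgeR called 0 of 9 members and 0 genes in all (0% of 14670), and DESeq2 called 0, against 0.327%. At an unadjusted p under 0.05 there was 1 member, Gpx1, at 0.36 on the log2 scale (SE 0.14), against 3.59% of all genes. Its value was 0.15 without the 5 mice rich in acinar markers, 2 of which are HF.Ctrl replicates 1 and 2, 0.25 with the acinar covariate and 0.25 without RF.Ctrl replicate 3. The HF.Ctrl mice behind this value are the controls of the high-fat comparison, in which Gpx1 was at -0.46. Gss was at -0.19 (SE 0.10, edgeR unadjusted p = 0.0725), with all HF.Ctrl mice below all RF.Ctrl mice. The share of all genes with such a separation is not given here. The same HF.Ctrl mice are the controls of the high-fat value of Gss, 0.39. Among restricted mice, HF.SAAR vs. RF.SAAR had 0 of 9 members called by edgeR, against 7 genes or 0.0477%, and DESeq2 called 0, against 0.610%. At an unadjusted p under 0.05 there were 2 members, Chac2 at 0.40 (SE 0.14) and Gpx4 at 0.35 (SE 0.16), against 5.59% of all genes. These values were 0.10 and 0.22 without the 5 mice rich in acinar markers, and 0.31 and 0.18 with the acinar covariate. The Gpx4 value was 0.20 without HF.SAAR replicate 2 and 0.49 without RF.SAAR replicate 2.

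Of 52 listed transcripts of the 9 members, 33 were tested among 35707. edgeR called 0 of 33 in RF.SAAR vs. RF.Ctrl, against 0.148% of transcripts, and 0 of 33 in HF.SAAR vs. HF.Ctrl, against 0.356%. At an unadjusted p under 0.05 there were 7 on regular fat, against 7.91%, and 8 on high fat, against 7.63%. In the average, looked at after the gene values were seen, edgeR called 2 of 33, Gss-201 and Gclm-206, against 1.49% of transcripts, and 10 had an unadjusted p under 0.05, against 11.3%. With at least 10 counts required in every mouse, Gclm-203 (0.48, edgeR adjusted p = 0.0235) was called in addition. The share of all transcripts called with this filter is not given here. A single transcript held over 90% of the counts of Gclc, Gss, Gsr, Gpx1, Gpx4 and Chac2. For Gss this was Gss-201, with 92.7% of the counts and an averaged log2 fold change of 0.39 (edgeR adjusted p = 0.0154), and with at least 10 counts required in every mouse it was also called on high fat (0.46, edgeR adjusted p = 0.0476). The leading transcript held 72.3% for Ggct (Ggct-202) and 50.9% for Oplah (Oplah-201), for which the rest lay mainly in Oplah-209 with 36.2%. These Oplah transcripts lay on opposite sides of 0 in the average and were not called. Oplah-209 was at 0.54 (SE 0.17, edgeR adjusted p = 0.189) and Oplah-201 at -0.21 (SE 0.14, edgeR adjusted p = 0.673). As for Gclm, such values rest on how common reads were divided.

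Beyond the members, 64 genes of glutathione and redox metabolism in 9 lists were looked up, of which 60 were tested. In them edgeR called 1 gene higher on regular fat (against 1.49% of all tested genes called in either direction), 3 higher on high fat (against 1.97%), and 6 higher and 1 lower in the average (against 6.92%). At an unadjusted p under 0.05 there were 10 of 60 on regular fat, 15 on high fat and 24 in the average, against 13.6, 12.4 and 20.3% of all genes. For the interaction 0 were called, and 2 had an unadjusted p under 0.05, against 3.15%. The called counts depended on the setting and ranged over the alternatives other than leaving out single mice from 0 to 3 on regular fat, 0 to 10 on high fat and 1 to 19 in the average, with the high end for library size alone and, on regular fat, also for DESeq2. Without single mice they were 0 to 1, 2 to 3 and 2 to 7. The averaged count was 2 without RF.Ctrl replicate 3, 3 without HF.Ctrl replicate 1 and 4 without RF.SAAR replicate 3, and the regular-fat count was 0 without RF.Ctrl replicates 1 or 3, any RF.SAAR mouse, HF.Ctrl replicate 1 or HF.SAAR replicate 1. Their median log2 fold change was 0.04 on regular fat, 0.12 on high fat and 0.10 in the average. The list of NADPH supply held Idh2, the mitochondrial isocitrate dehydrogenase that makes NADPH, the electron source of glutathione reductase. Its mean CPM rose from 82.8 ± 6.64 in RF.Ctrl to 113 ± 7.94 in RF.SAAR and from 79.6 ± 2.18 in HF.Ctrl to 131 ± 8.19 in HF.SAAR (SD, n = 3). This was a log2 fold change of 0.45 on regular fat (SE 0.10, edgeR adjusted p = 0.0359), 0.71 on high fat (SE 0.10, edgeR adjusted p = 0.00163) and 0.58 in the average (SE 0.07, edgeR adjusted p = 0.000250), with all restricted mice above all controls. The regular-fat call ended without any single RF mouse, HF.Ctrl replicate 1 or HF.SAAR replicate 1 (values from 0.40 to 0.52), whereas the other 2 calls of Idh2 were made without each mouse in turn. The other 4 genes of this list were not called, among them Idh1, the most abundant at 174 TPM.

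Nqo1, a quinone reductase long used as a marker of NRF2 activity, was low at 3.37 TPM and had the largest change among the called genes of these lists. Its mean CPM was 3.54 ± 0.180 in RF.Ctrl, 4.49 ± 0.517 in RF.SAAR, 2.42 ± 0.228 in HF.Ctrl and 6.42 ± 0.541 in HF.SAAR. On the log2 scale it rose on high fat by 1.40 (SE 0.18, edgeR adjusted p = 0.000936) and in the average by 0.87 (SE 0.12, edgeR adjusted p = 0.000915), while on regular fat it was 0.34 (SE 0.17, edgeR adjusted p = 0.432) with no overlap between diets. The difference between fat levels, 1.06, did not pass the threshold (edgeR adjusted p = 0.831). Nfe2l2, which encodes NRF2 and was the most abundant gene of that list at 24.8 TPM, was not called.

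In the list of cysteine supply, 0 of 6 tested genes were called by edgeR or had an unadjusted p under 0.05 on regular fat, where 5 were positive. All 6 were positive on high fat and in the average, beside 49.8 and 49.3% of all genes, and 1 was called in each, against 1.97 and 6.92%, where 3 in each had an unadjusted p under 0.05, against 12.4 and 20.3%. Slc3a2, the heavy chain shared by cystine and other amino acid exchangers, rose on high fat by 0.61 (SE 0.14, edgeR adjusted p = 0.0413) and in the average by 0.44 (SE 0.10, edgeR adjusted p = 0.0174). The high-fat call ended without 9 of the 12 single mice (all but RF.Ctrl replicate 1, RF.SAAR replicate 2 and HF.SAAR replicate 2), at 0.45 without HF.SAAR replicate 3 and 0.75 without HF.SAAR replicate 2, and with the acinar covariate (0.59, adjusted p = 0.0541) and the compared groups alone (0.61, adjusted p = 0.12). In the average it ended without RF.Ctrl replicate 3 (0.41, adjusted p = 0.0502). Cth, which releases cysteine from cystathionine and was the most abundant of them at 253 TPM, was not called, at 0.47 on high fat (SE 0.19, edgeR adjusted p = 0.318). In the average, the glutaredoxin gene Glrx rose by 0.53 (SE 0.13, edgeR adjusted p = 0.0297). Of 13 genes of the thioredoxin system, Txnrd1, a thioredoxin reductase, rose by 0.39 (SE 0.09, edgeR adjusted p = 0.0188) and Srxn1, sulfiredoxin, by 0.50 (SE 0.13, edgeR adjusted p = 0.0413). With single mice left out, Glrx passed the threshold in the 4 fits without RF.Ctrl replicate 1, RF.SAAR replicate 1, HF.Ctrl replicate 2 or HF.SAAR replicate 3 (range over the 12 fits 0.45 to 0.63), and Srxn1 in the 3 fits without RF.SAAR replicate 1, HF.SAAR replicate 1 or HF.SAAR replicate 2 (0.38 to 0.58). Txnrd1 missed it without RF.Ctrl replicate 3, HF.Ctrl replicate 1 or HF.SAAR replicate 1 (0.33 to 0.44 over the 12 fits). For Glrx, Txnrd1, Srxn1 and Slc3a2 the diets overlapped over the 12 mice. With effective length offsets, Srxn1 in the average was at 0.48 (edgeR adjusted p = 0.0614), Slc3a2 on high fat at 0.58 (adjusted p = 0.073) and Idh2 on regular fat at 0.45 (adjusted p = 0.0504), so that these 3 values lay near those above and missed the threshold.

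Sephs2, which makes the selenium donor for selenoproteins such as Gpx1 and Gpx4, fell by 0.30 on the log2 scale in the average (SE 0.08, edgeR adjusted p = 0.0329). Its mean CPM was 1053 ± 123 in RF.Ctrl, 833 ± 80.2 in RF.SAAR, 1089 ± 114 in HF.Ctrl and 903 ± 52.7 in HF.SAAR, and restricted mice were lower without overlap on each fat level. With library size alone it was at -0.14 and not called, and with single mice left out it was called in 4 of 12 fits, those without RF.Ctrl replicate 1, RF.SAAR replicate 2, HF.Ctrl replicate 2 or HF.Ctrl replicate 3 (range over the 12 fits -0.35 to -0.26). The most abundant gene of that list, Selenop, which carries selenium from the liver, was not called at 3292 TPM. In the remaining lists 0 genes were called by edgeR on either fat level, in the average or for the interaction: 4 tested genes of other glutathione peroxidases (most abundant Gpx3 at 10.1 TPM, 1 with an unadjusted p under 0.05 on high fat and in the average), 9 of glutathione breakdown (Lap3 at 224 TPM, 1 in the average) and 7 of glutathione transport (Slc25a39 at 193 TPM, 1 on regular fat and 2 in the average). Prdx1 at 605 TPM and Glrx3 at 48.7 TPM led the thioredoxin and glutaredoxin lists and were not called.

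**Figure D5:**
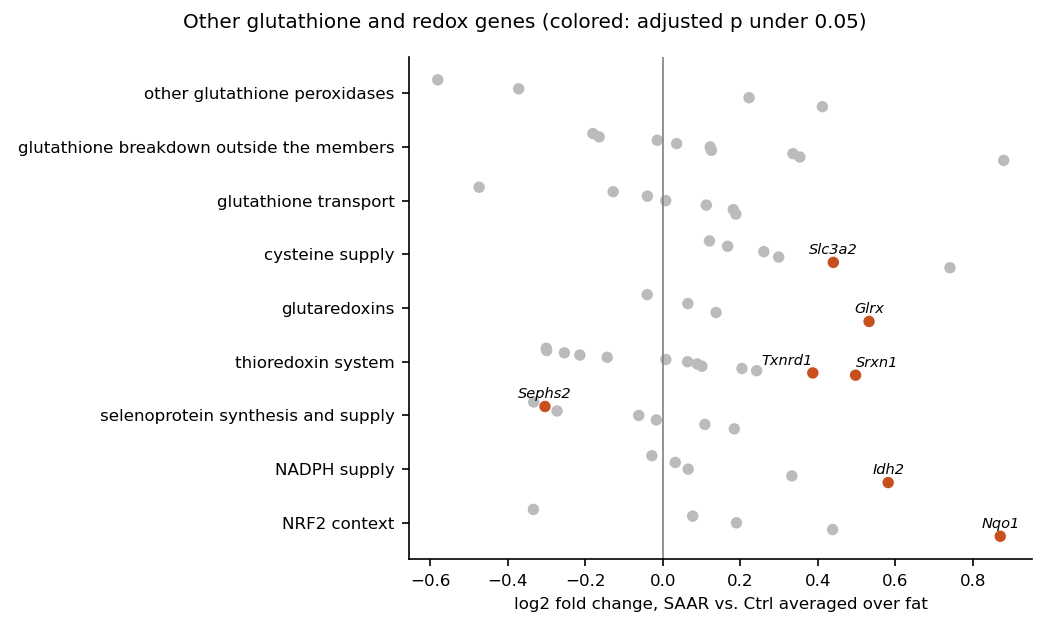
Log2 fold change with restriction, averaged over fat, of the 60 tested genes of the other glutathione and redox lists, 1 point per gene and 1 row per list, spread vertically for legibility. Colored and named points have an edgeR adjusted p under 0.05: 6 genes above 0, up to Nqo1 at 0.87, and Sephs2 at -0.30.

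Markers of the cell types a liver sample can hold were summed in each mouse. All 8 hepatocyte markers were found, with a summed CPM of 72992 to 94183 and Alb as the most abundant, and the 3 RF.SAAR mice (80400, 73666 and 72992) were below the 3 RF.Ctrl mice (81573, 94183 and 89205). The 16 markers of pancreatic acinar cells were all above 0, with Ctrb1 the most abundant, and varied most between mice. Their summed CPM was 1038, 63.7 and 66.0 in RF.Ctrl, 35.4, 70.7 and 54.7 in RF.SAAR, 1181, 4252 and 59.9 in HF.Ctrl and 55.9, 2749 and 12656 in HF.SAAR. This signal was above 1000 CPM in 5 mice and overlapped between the diets on both fat levels, and 0 of its genes were called by edgeR on either fat level or in the average.

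With the summed acinar markers as a covariate, edgeR called 2 members in the average, Gss (0.34, adjusted p = 0.00661) and Gclc (0.51, adjusted p = 0.0331). The share of all genes called in that fit is not given here, so these 2 members cannot be set against it. Without the 5 mice above 1000 CPM, which left 1 mouse each in HF.Ctrl and HF.SAAR that is assumed to vary like the others, Gss was at 0.34 and was not called (edgeR adjusted p = 0.183), in a fit that called 234 genes in the average in place of 1015. Of the 7 other list genes called in the average, 1, Glrx, was called in that fit (0.67, edgeR adjusted p = 0.0325). The averaged values of the others there were 0.57 for Idh2, 0.83 for Nqo1, 0.52 for Slc3a2, 0.33 for Txnrd1, 0.33 for Srxn1 and -0.26 for Sephs2, beside 0.58, 0.87, 0.44, 0.39, 0.50 and -0.30 over all 12 mice. The sums of 5 erythroid markers, led by Hbb-bs, were 594, 672 and 602 CPM in RF.Ctrl and 318, 393 and 366 in RF.SAAR, and 468, 454 and 444 in HF.Ctrl and 344, 553 and 243 in HF.SAAR. Among them Alas2 was called lower on both fat levels and in the average. The part of erythroid cells in the members' values was not tested.

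The other marker sums overlapped between diets on both fat levels. They ranged from 254 to 412 CPM for 6 Kupffer cell markers (led by Clec4f), 210 to 269 for 5 stellate cell markers (led by Dcn), 219 to 255 for 5 markers of sinusoidal endothelium (led by Clec4g), 5.25 to 15.8 for 4 cholangiocyte markers (led by Sox9) and 5.06 to 19.3 for 4 adipocyte markers (led by Cidec, with Lep at 0 in some mice). Of these genes edgeR called 1, the stellate cell marker Lrat, lower on regular fat and in the average.

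Over the 12 mice, the members' log2 CPM varied together to different degrees, which is given as a description since the mice share diets and libraries. Pearson's r was 0.79 between Gclc and Gclm, 0.75 between Gss and Gsr, 0.73 between Gpx4 and Oplah and 0.72 between Gpx4 and Ggct, and it was -0.77 between Gclc and Gpx1. Among 14661 genes outside the members, the 3 most like Gss over the 12 mice were Cfap53 (r = 0.950), Pik3ap1 (r = 0.937) and Mvp (r = 0.931). After subtraction of each group's mean, r with Gss was 0.66, 0.76 and 0.88 for the same genes.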

How the data were processed

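Liver RNA of 12 mice was measured, and the 4 groups were taken from the labels. There, the field for fat content holds Ctrl or SAAR and the field for diet holds HF or RF, so the field names look exchanged, and the groups were read from the values. Replicate numbers follow the order of deposit and pair no mice. Per the study's methods, the authors trimmed the reads and quantified them against Ensembl 94 transcripts, and their processing notes name FastQC, cutadapt, kallisto and DESeq2. The deposited estimated counts, TPM and effective lengths of 118489 transcripts per mouse were used. Here, 116816 transcripts were matched by identifier to GENCODE M21, and their estimated counts were summed over 36047 genes and rounded to whole numbers. Unmatched transcripts, 1.08% of counts, were left out.

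Genes were kept by filterByExpr, scaled by TMM and tested in edgeR 4.0.16 (R 4.3.3, limma 3.58.1) with glmQLFit (robust) and glmQLFTest, with 1 coefficient per group over all 12 mice and Benjamini-Hochberg adjustment over 14670 genes or 35707 transcripts. The standard error is the log2 fold change divided by the square root of F. The procedure was run on simulated data for RF.SAAR vs. RF.Ctrl, the outcome of which is not given here. DESeq2 1.42.0 served as an alternative, as did other scalings and filters, effective length offsets, an acinar marker covariate, fits of the compared groups alone and leaving out each mouse in turn.

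All 9 members were named. From the other lists, genes called in a restriction comparison or the interaction and the most abundant gene of each list by mean TPM were named, and for a called member the 3 genes with the highest Pearson r of log2 CPM (prior count 2). Cell type markers and lists were taken from textbook knowledge. The members and lists were chosen with earlier results of these data known. Of 64 list genes, Gpx2, Gpx5 and Dpep3 were too low to test and Dpep2 matched more than 1 gene identifier. Replicates of a group differed by more than sampling noise, and each library is from 1 mouse.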

Additional observations from a re-analysis of the deposited data

How the results depend on the processing

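No paired analysis was made, since each mouse ate 1 experimental diet and the labels give neither replicate numbers nor pairs. The sample titles run through the 4 groups in turn, and an effect of this order was not tested. Members called by edgeR numbered 0 on regular fat, 0 on high fat and 1 in the average, and moved as follows. With library size alone they were 1, 3 and 7, with 84.5, 88.9 and 88.8% of all called genes higher in place of 40.4, 51.2 and 46.5%, as the scaling shifts all genes up. DESeq2 gave 1, 2 and 5. With at least 10 counts in every mouse, for which fewer genes were tested, 1 member (Gss) and 1 member transcript (Gss-201) were called on high fat, and 3 member transcripts in place of 2 in the average. The shares of all genes and transcripts called with this filter are not given here, so these calls cannot be set against them. In the average, 2 were called with effective length offsets, 2 with the acinar covariate and 0 without the 5 mice above 1000 acinar CPM, an alternative added after seeing the data that leaves fewer mice. The fit with effective length offsets called 750 genes in all in the average, in place of 1015. The matching count with the acinar covariate is not given here. For the interaction and both comparisons of fat level, 0 members were called in every alternative run. The cause of the other moves was not tested.

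Leaving out each mouse in turn left 0 members called in the comparisons on regular fat and high fat, the interaction and those of fat level. In the average 1 to 3 were called: 2 without RF.SAAR replicate 1 or HF.SAAR replicate 2, and 3 without RF.SAAR replicate 2 or HF.Ctrl replicate 3. Gss was called in the average in each of these 12 fits (log2 fold change 0.29 to 0.36, edgeR adjusted p 0.0106 to 0.0302). For the interaction, HF.Ctrl vs. RF.Ctrl and HF.SAAR vs. RF.SAAR, all genes called were 1, 0 and 7, and up to 16, 34 and 86 over the alternatives, each time with DESeq2. All genes called by edgeR were 218 on regular fat, 289 on high fat and 1015 in the average. They were 425, 719 and 2449 with library size alone, 81, 6 and 234 without the 5 mice, 606 and 605 on both fat levels with DESeq2, and 190 on high fat with the compared groups alone. Without single mice they ranged from 87 to 244 on regular fat, 110 to 310 on high fat and 655 to 968 in the average. These counts fell by more than 1.5 times on regular fat without any RF.Ctrl mouse, RF.SAAR replicates 1 or 3 or HF.Ctrl replicate 1, on high fat without any HF.SAAR mouse or HF.Ctrl replicates 1 or 3, and in the average without HF.Ctrl replicate 1.

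Of the other list genes, Idh2 on high fat and in the average and Nqo1 kept their calls without any single mouse. Idh2 lost its call on regular fat without any RF mouse, HF.Ctrl replicate 1 or HF.SAAR replicate 1 (log2 fold change 0.40 to 0.52). Slc3a2 on high fat kept it without RF.Ctrl replicate 1, RF.SAAR replicate 2 or HF.SAAR replicate 2 alone (0.45 to 0.75 over all 12 fits), and lost it in the average without RF.Ctrl replicate 3. These 2 calls on 1 fat level also ended with effective length offsets and with the compared groups alone, that of Idh2 without a low-count filter (adjusted p = 0.0635) and that of Slc3a2 with the acinar covariate (adjusted p = 0.0541). In the average, Txnrd1 lost it without RF.Ctrl replicate 3, HF.Ctrl replicate 1 or HF.SAAR replicate 1, whereas Glrx, Sephs2 and Srxn1 lost it without 8, 8 and 9 of the 12 mice. Over all 12 fits the values were 0.33 to 0.44 for Txnrd1, 0.45 to 0.63 for Glrx, -0.35 to -0.26 for Sephs2 and 0.38 to 0.58 for Srxn1.

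Members whose sign changed did so around values that were not called. With library size alone this held for Chac2 in the average (0.13), Oplah on high fat (0.16) and Gsr in HF.Ctrl vs. RF.Ctrl (-0.06). With effective length offsets it held for Gclm (0.00), Gsr (0.03) and Oplah (0.06) in HF.SAAR vs. RF.SAAR, Gsr in HF.Ctrl vs. RF.Ctrl (-0.04) and Gsr in the interaction (0.07). With the acinar covariate it held in HF.SAAR vs. RF.SAAR for Gclc (0.05), Gclm (0.06) and Gpx1 (-0.14), and for Gclc in HF.Ctrl vs. RF.Ctrl (0.06). Without the 5 mice it held for Chac2 on high fat (-0.27), in the interaction (-0.09) and in HF.Ctrl vs. RF.Ctrl (0.19), there also for Gclc (0.27) and Gsr (-0.08), and in HF.SAAR vs. RF.SAAR for Gclm (0.05), Gpx1 (-0.10) and Ggct (-0.09).

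Leaving out single mice turned the sign of Gpx4 on regular fat (range -0.01 to 0.26), Oplah on high fat (-0.07 to 0.02) and Chac2 in the average (-0.08 to 0.04), of Gclc in the interaction (-0.40 to 0.01), in HF.Ctrl vs. RF.Ctrl of Gclc (-0.26 to 0.15), Gclm (-0.00 to 0.14), Gsr (-0.05 to 0.06), Gpx4 (-0.01 to 0.20) and Chac2 (-0.12 to 0.08), and in HF.SAAR vs. RF.SAAR of Gclm (-0.07 to 0.04), Gpx1 (-0.02 to 0.20) and Oplah (-0.08 to 0.06). With 3 mice per group and 123 to 266 counts per mouse, Ggct is the member whose values rest on the fewest reads.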
